A study of Mus musculus with 4 samples.

Results

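Open chromatin of the mouse embryonic stem cell line ES-E14TG2a was mapped by ATAC-seq, a method that tags open DNA with a transposase, during differentiation through cardiogenic mesoderm toward endothelial cells (ECs). The regions described here are the promoters of protein-coding genes that carried a peak in every library. Peaks of all 4 libraries were merged wherever they overlapped by at least 1 bp, and a merged region was kept when it held a peak in each of the 4 libraries and lay within 1000 bp of a transcript start of a protein-coding gene (GENCODE release M 21, mm10). The members were thus selected on the presence of a peak, which rests on the measured strength of the signal. The rule kept 9512 of 40910 merged regions (23.3%), called member regions below. They were 82.8% of the 11494 regions shared by all libraries and 57.3% of the 16595 regions found near a coding start in any library.

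The d4 group held 2 libraries from cells at day 4 and the d2 group 2 libraries from cells at day 2, all of the same line with wild-type genotype, and the replicates came from separate differentiation experiments. Both groups were grown without serum after release from LIF. The d4 cells were taken after, and the d2 cells before, the addition of Activin A, BMP4 and VEGF, growth factors that direct cells to mesoderm and endothelium. The cells were not sorted, so a weaker promoter and fewer cells with an open promoter cannot be told apart. The line is of 129 origin, whereas the reference genome is that of C57BL/6J.

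Promoters are the stretches around transcript starts where RNA polymerase II and its general factors assemble. In mammals most genes used by every cell have promoters rich in the dinucleotide CpG (CpG islands), which stay free of nucleosomes in most cell types and bind factors such as SP1, NRF1, NF-Y and ETS proteins. Genes used by few cell types more often have CpG-poor promoters, and developmental regulators have CpG islands that Polycomb proteins can hold in check.

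The sequences show what member promoters with the letters of such motifs look like, and a match to the letters does not show that a factor was bound. The 8 motifs were taken in the order below, and for each the region with the highest lowest percentile rank over the libraries was chosen. The region had to hold the motif, contain a coding start and allow a window nearly free of exons. Regions chosen for an earlier motif and genes with only a clone name were passed over. Mtr, for example, also holds a CCAAT box and ranked above Adgrv1 in every library. Each window is from the GRCm38 reference, 5′ to 3′ on the strand of the gene, with the motif in capitals. Each gene name is followed by its motif.
Mtr, GC box bound by SP and KLF factors: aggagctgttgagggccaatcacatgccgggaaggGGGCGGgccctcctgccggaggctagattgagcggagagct
Adgrv1, CCAAT box bound by NF-Y: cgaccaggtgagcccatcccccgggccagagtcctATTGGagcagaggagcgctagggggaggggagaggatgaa
Cggbp1, ETS site: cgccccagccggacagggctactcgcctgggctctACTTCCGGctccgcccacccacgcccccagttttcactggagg
Ints3, NRF1 site: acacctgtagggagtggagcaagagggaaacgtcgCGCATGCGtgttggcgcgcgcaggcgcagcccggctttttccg
Cdk5rap2, YY1 site: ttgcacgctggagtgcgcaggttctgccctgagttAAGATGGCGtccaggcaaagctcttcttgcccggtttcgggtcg
Spag16, BANP site: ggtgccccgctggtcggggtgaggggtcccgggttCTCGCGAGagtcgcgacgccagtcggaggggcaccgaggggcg
Kbtbd7, ZNF143 and THAP11 site: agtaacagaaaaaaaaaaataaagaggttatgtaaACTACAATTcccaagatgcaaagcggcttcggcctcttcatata
Efcab14, CRE: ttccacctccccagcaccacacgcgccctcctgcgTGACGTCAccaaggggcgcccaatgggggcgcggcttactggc
The window of Mtr was chr13:12258154-12258229 (minus strand), with the motif at -81 bp from its start, and that of Adgrv1 chr13:81633169-81633243 (minus strand). Those of Cggbp1 and Ints3 were chr16:64851771-64851848 (plus strand) and chr3:90433753-90433830 (minus strand). Those of Cdk5rap2 and Spag16 were chr4:70410497-70410575 (minus strand) and chr1:69826915-69826992 (plus strand). Those of Kbtbd7 and Efcab14 were chr14:79426290-79426368 and chr4:115737662-115737739 (both plus strand). All 8 motifs lay upstream of the nearest start of their gene, at positions from -20 bp in Spag16 to -190 bp in Cggbp1. In Adgrv1 and Cggbp1 the motif stood in the reverse orientation.

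The deposited data were 1 list of peaks per library, called by the authors in each library alone. The lists held 22511 and 21299 peaks in d4 replicates 1 and 2, and 26865 and 24544 in d2 replicates 1 and 2. Depth could be solved from the lists as background coverage, the pileup per base expected in the whole genome, which was 0.755 and 0.744 at d4, against 0.568 and 0.483 at d2. The fold enrichment of a peak is its pileup over the local background, with 1 added to both. Because depth differed, peaks were compared by percentile rank within a library, in which 100 marks the strongest peak. The library percentile ranks a region's strongest peak among all peaks of the library, and the shared percentile ranks it among the 11494 shared regions.

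Member regions made up a large part of each list. They held 10026 and 9979 peaks in d4 replicates 1 and 2 (44.5% and 46.9% of all peaks), and 10237 and 9762 in d2 replicates 1 and 2 (38.1% and 39.8%). Among the 1000 strongest peaks of a library, 867 and 870 lay in member regions at d4, and 823 and 872 at d2. The median library percentile of member regions was 71.3 and 70.3 in d4 replicates 1 and 2, and 74.9 and 75.3 in d2 replicates 1 and 2. Coding promoters that missed a peak in at least 1 library had medians of 22.5 and 21.2 at d4, and 27.5 and 28.5 at d2. Shared regions away from any start lay between, at 57.9 and 56.3 at d4, and 62.4 and 57.0 at d2. A peak in every library was the rule of choice and strong peaks are found more easily, so these values describe the members and were not tested. At the summit of a member peak the median pileup was 25 at d4 in each replicate, against 22 and 28 at d2, and the smallest in any library was 6.

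**Figure D1:**
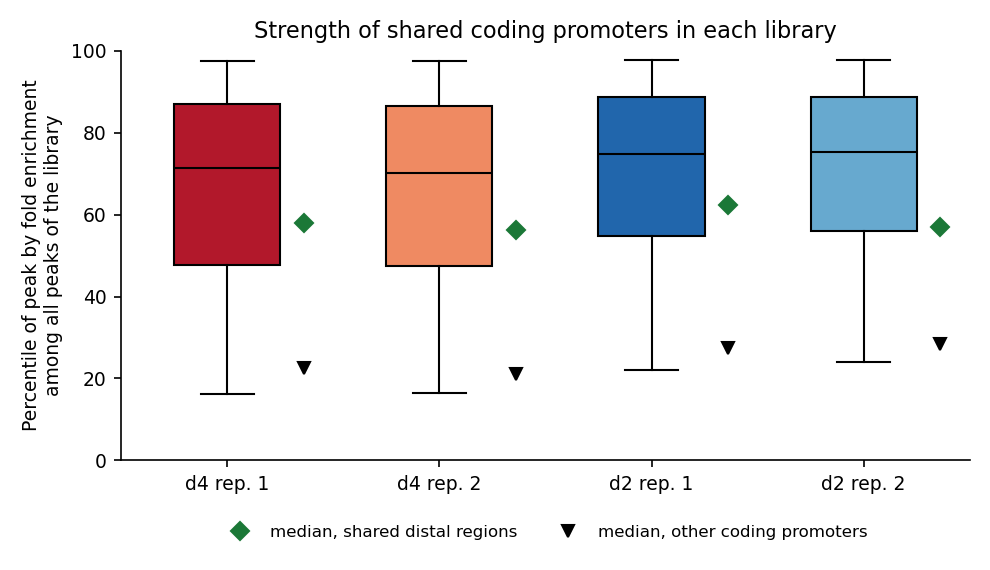
Library percentile of the 9512 member regions by fold enrichment (vertical axis, 0 to 100) in each library. Boxes span the quartiles with the median as a line, whiskers the 5th to 95th percentiles, diamonds the median of shared distal regions and triangles that of other coding promoters. The member median lies above both marks in all 4 libraries, at 71.3 and 70.3 at d4, and 74.9 and 75.3 at d2.

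Not every member was strong. In the d4 libraries 272 and 264 member regions (2.86% and 2.78%) were among the weakest 10% of all peaks, and in the d2 libraries 147 and 121 (1.55% and 1.27%). The strongest 10% held 1904 and 1802 of them at d4, and 2111 and 2091 at d2. Among member regions the shared percentile of the 2 d4 libraries had a Spearman correlation of 0.81 across the 9512 regions, that of the 2 d2 libraries 0.71, and that of a d4 with a d2 library 0.66 to 0.70. The regions of a library share its depth and are no independent replicates, so no p is given.

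The share of regions that any 1 library removed from the list was also counted. Of the regions near a coding start with a peak in the other 3 libraries, 94.2% and 94.0% also had one in d4 replicates 1 and 2, and 97.5% and 98.0% in d2 replicates 1 and 2. For regions away from all starts the shares were 81.7% and 77.9% at d4, and 89.6% and 82.2% at d2. The regions found in all libraries are the same 9512 members or 1630 distal regions in each of these shares, so the shares describe the rule of choice and were not tested.

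The member regions were wide and sat on the start itself. Their median width was 639 bp, with quartiles of 494 and 811 bp and a range from 144 to 2459 bp, against 241 bp for other coding promoters, 395 bp for shared distal regions and 273 bp for all merged regions. A merged region spans the peaks of all libraries, so it is wider than its parts: member peaks had median widths of 425.5 and 432 bp in the d4 libraries, and 441 and 507 bp in the d2 libraries. A coding start lay inside 8776 of the regions (92.3%). The summit of the strongest peak was at a median position of -26 bp from the nearest coding start, and in 6321 regions (66.5%) it was within 100 bp of it. In 6230 regions (65.5%) it was upstream. At the edge of the rule, the 20 members in the last 100 bp before the limit had a median width of 394 bp, and the 20 shared regions just outside the limit had one of 483.5 bp.

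Width and strength did not run in parallel over the whole range. The member regions were divided into 4 equal sets by width. In the narrowest set the median library percentile was 60.5 and 59.6 at d4, and 64.6 and 64.9 at d2. In the third set it was 76.1 and 75.8 at d4, and 78.7 and 80.2 at d2, and in the widest set it was 74.3 and 72.7 at d4, and 77.5 and 77.1 at d2. Regions with more than 1 peak in a library were most frequent in the widest set, at 16.0% and 15.4% at d4, and 21.4% and 7.74% at d2. The widest member region, of 2459 bp, was at Ppp2r3d, which encodes a regulatory subunit of protein phosphatase 2A. Its library percentile was 43.2 and 27.4 at d4, and 35.6 and 46.9 at d2, below the member median in every library. The next widest were at Crlf2 (2215 bp), Kcnn2 (2061 bp) and Gpc6 (2024 bp), a cytokine receptor chain, a calcium-activated potassium channel and a glypican. None of these 3 reached the member median in any library.

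Divergent promoters, in which coding genes are read in opposite directions from starts at most 1000 bp apart, made up 952 member regions (10.0%). They were wider than the rest, with a median of 739.5 against 629 bp. Their median library percentile was 78.8 and 77.2 at d4, and 78.6 and 80.0 at d2, against 70.3 and 69.3 at d4, and 74.5 and 74.8 at d2, for the other members. ETS sites were found in 14.7% of divergent regions and in 7.77% of the others.

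The strongest region in every library was at Zfp960, a zinc finger gene. Its fold enrichment was 34.3 and 34.7 in d4 replicates 1 and 2, and 27.4 and 26.6 in d2 replicates 1 and 2. The region was only 188 bp wide (chr17:17063914-17064101), ended 12 bp short of the start and had few CpGs around its summit, 0.39 of the number expected from base composition. The next was at Mtr, methionine synthase (chr13:12257741-12258341), with fold enrichments of 21.5 and 22.2 at d4, and 21.6 and 24.5 at d2. It was followed by Ccnh, a cyclin that is part of the general factor TFIIH (19.9 and 20.6 at d4, and 19.1 and 21.3 at d2). At Adgrv1, an adhesion receptor, the values were 20.1 and 19.8 at d4, and 21.1 and 23.4 at d2. The other 6 of the 10 strongest by the lowest percentile were at Hps3, Wdr17, Napb, Tasp1, Uggt2 and Lin7c. Hps3 acts in the making of lysosome-related organelles, Napb in vesicle fusion, Tasp1 is the protease that cleaves MLL proteins and Uggt2 is a folding sensor of the endoplasmic reticulum. Every one of these 10 was above the 99th library percentile in all 4 libraries.

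A member region was found at 10116 of 21938 protein-coding genes (46.1%). A further 3779 genes had promoter regions that missed at least 1 library, and 8043 (36.7%) had no region within reach. The share of genes was larger at higher CpG content, measured as the ratio of observed to expected CpGs in 300 bp around the outermost start of a gene. A member region was found at 7.19% of 4884 genes with a ratio up to 0.2, 17.4% of 3640 genes from 0.2 to 0.4, 44.9% of 2596 genes from 0.4 to 0.6, 68.7% of 3913 genes from 0.6 to 0.8, and 76.4% of 6905 genes above 0.8. The median ratio was 0.81 for genes with a member region, 0.64 for genes with other promoter regions only and 0.19 for genes with none. At the member summits themselves the median GC content was 65.3%, and that of all merged regions was 56.0%.

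The gene classes open in all libraries were largely those that every dividing cell uses. Read against the 46.1% of all coding genes, a member region was found at 19 of 19 genes for the MCM, ORC and GINS proteins, which license and unwind replication origins. The same held for 7 of 7 matched subunits of the cytosolic chaperonin, which folds actin and tubulin, and for 19 of 20 aminoacyl-tRNA synthetases, which charge tRNAs. It held for 28 of 30 subunits of Mediator, which links activators to RNA polymerase II, and for 13 of 14 subunits of the anaphase-promoting complex, the ubiquitin ligase of mitotic exit. Among nucleoporins, which form the nuclear pore, the count was 18 of 21. Protein-making and energy genes followed, with 64 of 78 mitochondrial and 62 of 79 cytosolic ribosomal protein genes, 45 of 55 translation initiation factors, 38 of 49 proteasome subunits and 29 of 37 subunits of respiratory complex I. Of 40 classes, 25 had a larger share than all coding genes. The classes were not matched for CpG content, and of all coding genes with a CpG ratio above 0.8, 76.4% had a member region.

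**Figure D2:**
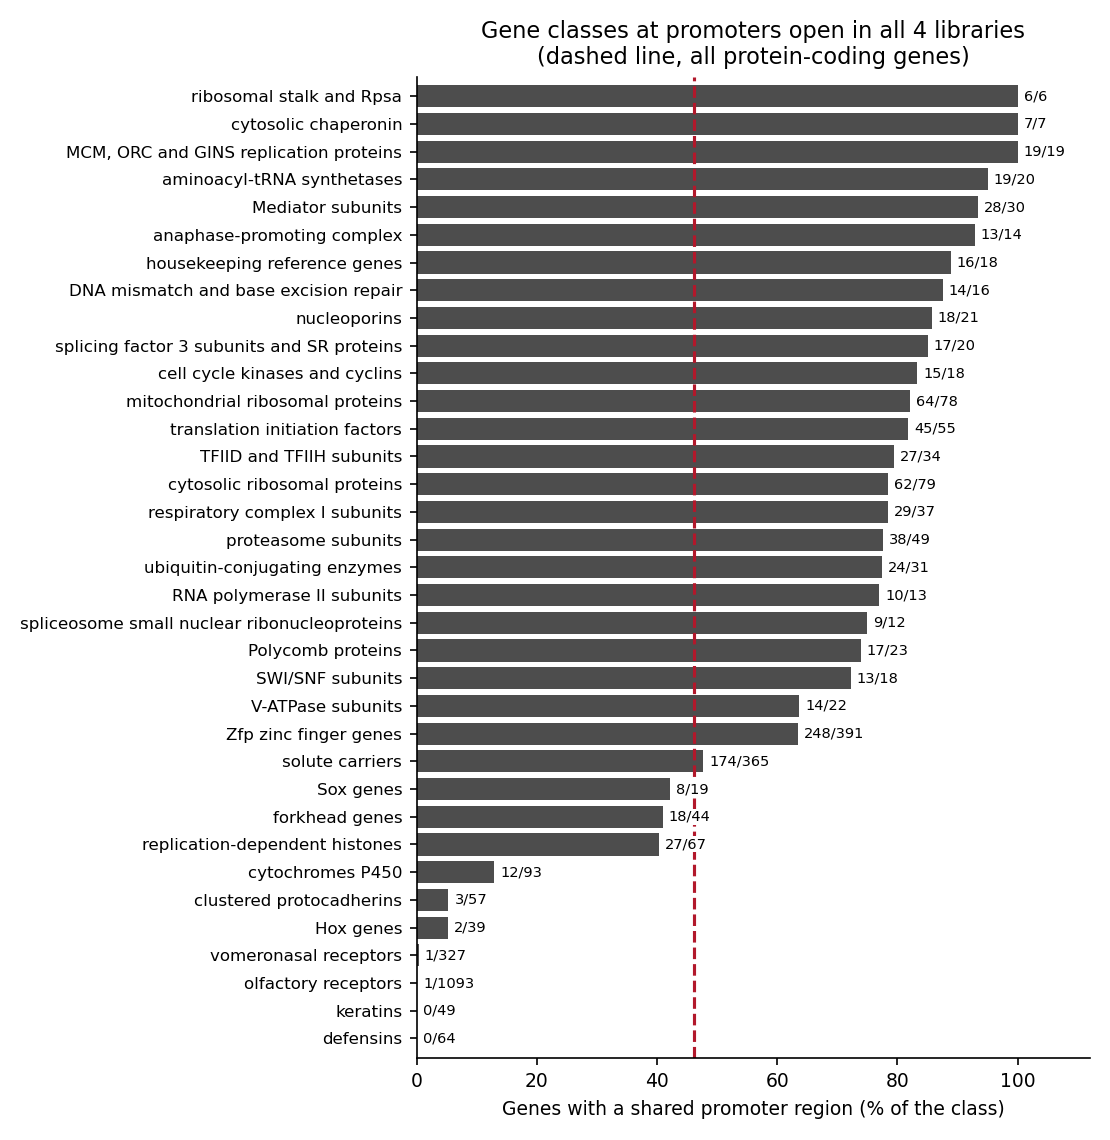
Share of the genes of each class with a member region (horizontal axis, %), with the number of genes beside each bar and the share of all protein-coding genes, 46.1%, as a dashed line. Housekeeping machines lie right of the line, from 14 of 22 V-ATPase subunits up to 19 of 19 replication proteins, and receptor, keratin and defensin genes lie at its far left.

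Classes used by few cell types stood at the other end. Olfactory receptors had a member region at 1 of 1093 genes (Olfr94) and vomeronasal receptors at 1 of 327 (Vmn1r4, whose region also covers a start of Nt5c3, a nucleotidase). Keratins had 0 of 49 and defensins 0 of 64. Cytochromes P450, enzymes of drug and steroid metabolism, had 12 of 93. Hox genes, which give body segments their identity and are Polycomb targets in stem cells, had 2 of 39, among them Hoxc13, although 17 others had a promoter region in some library. Clustered protocadherins had 3 of 57. Sox (8 of 19) and forkhead genes (18 of 44), both families of developmental transcription factors, and solute carriers (174 of 365) came near the share of all genes. These classes were not matched for CpG content either. The median CpG ratio was 0.15 for cytochromes P450, 0.09 for both receptor classes and 0.08 for defensins. Of all coding genes with a ratio up to 0.2, 7.19% had a member region, against 12.9% of cytochromes P450. The ratio was 0.38 for keratins, 0.59 for clustered protocadherins and 0.71 for Hox genes. In the ranges of these ratios the shares of all coding genes were 17.4%, 44.9% and 68.7%.

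The strongest classes were those of DNA replication and repair. The lowest library percentile of a region over the 4 libraries had a median of 58.5 over all coding genes with a member region, 85.1 over 14 regions of mismatch and base excision repair genes and 84.9 over 19 regions of the MCM, ORC and GINS genes. The ribosomal stalk and Rpsa (31.7, 6 regions) and the cytosolic ribosomal proteins (51.3, 62 regions) lay below the value for all genes. The highest of the repair genes was Ogg1, a glycosylase that removes oxidized guanine, at 94.4 as its lowest percentile, and the highest of the replication genes was Gins4 at 96.6. Histone genes of the replication-dependent clusters had a member region at 27 of 67 genes, in 18 regions with a median width of 335 bp. These genes are near-identical copies and the authors removed reads that map to several places, so their count is uncertain.

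Markers of the cells in culture are set here beside the 46.1% of all coding genes with a member region, and the lists are too short to be read as a difference from it. Of 9 pluripotency markers, Klf4 and Utf1 had a member region. Promoter peaks at Pou5f1 and Zfp42 were called in both d2 libraries and in no d4 library. At Nanog, Tdgf1 and Dppa5a they were called in a single d2 library. Sox2 had promoter peaks in every library, but no region with all of them, and Esrrb had them in d4 replicate 2 and both d2 libraries. None of these other markers had a member region. Of 7 mesoderm markers only Kdr, the main VEGF receptor and the earliest marker of endothelial progenitors, had one. Its library percentile was 46.9 and 58.2 at d4, and 75.4 and 20.96 at d2, so the groups overlapped. Of 10 endothelial markers Erg, Etv2 and Notch1 had a member region. Promoter peaks at Cdh5 and Pecam1 were called in d4 replicate 1 only, at Eng in d2 replicate 2 only and at Flt1 in 3 libraries, so these 4 genes of the endothelial surface had no member region. Of 18 housekeeping reference genes 16 had a member region, and Hprt had no promoter peak. As background, ES-E14TG2a was isolated as an Hprt-deficient line.

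Among motifs, those of factors that bind CpG-rich DNA were more frequent in member regions than in all merged regions. The shares were not matched for GC content, whose median was 65.3% in member regions and 56.0% in all merged regions. How far base composition alone sets these shares was not tested. All motifs were searched on both strands in 300 bp around the strongest summit, and none of their letters lies wholly within another motif. The GC box (GGGCGG) was found in 74.2% of member regions and 36.9% of all regions. The ETS site (CCGGAAGT) was found in 8.46% and 2.75%, the NRF1 site (CGCATGCG) in 3.795% and 1.25%, the YY1 site (AAGATGGCG) in 3.47% and 1.17%, and the CRE (TGACGTCA) in 4.03% and 1.52%. The BANP site (CTCGCGAG) was found in 2.24% and 0.665%, the E2F site (TTCCCGCC) in 5.09% and 2.24%, and the ZNF143 and THAP11 site (ACTACAATT) in 0.767% and 0.286%. 

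Other motifs, searched in the same way and also not matched for GC content, were less frequent in member regions than in all merged regions. The motif of GATA factors (AGATAAG) was found in 0.925% of member and 6.34% of all regions, AP-1 (TGANTCA) in 3.13% and 8.37%, and the TATA box (TATAAA) in 3.10% and 6.09%.

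The CCAAT box (CCAAT), bound by the trimer NF-Y, was more frequent in the stronger member regions. It was found in 40.3% of member regions and 32.5% of all regions, and around the start in 38.0% of genes with a member region and 39.2% of genes with none. Member regions were then divided into 4 equal sets by their lowest shared percentile. The share with a CCAAT box was 27.9%, 34.2%, 43.1% and 56.1% in order of strength. Over the same sets the GC box went from 71.6% to 77.6%, the ETS site from 5.97% to 11.4%, the ZNF143 and THAP11 site from 0.336% to 1.35% and the TATA box from 3.99% to 1.89%. In d4 replicates 1 and 2 the median library percentile was 78.5 and 77.3 with a CCAAT box, and 65.6 and 64.7 without. In the d2 libraries it was 80.8 and 81.0 with the box, and 70.4 and 71.1 without. The box was present in 14 of the 19 replication regions (73.7%) and in 88.9% of the 18 histone regions. The order is a description, since regions are not replicates and the sets were cut on the same peaks that chose the members.

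**Figure D3:**
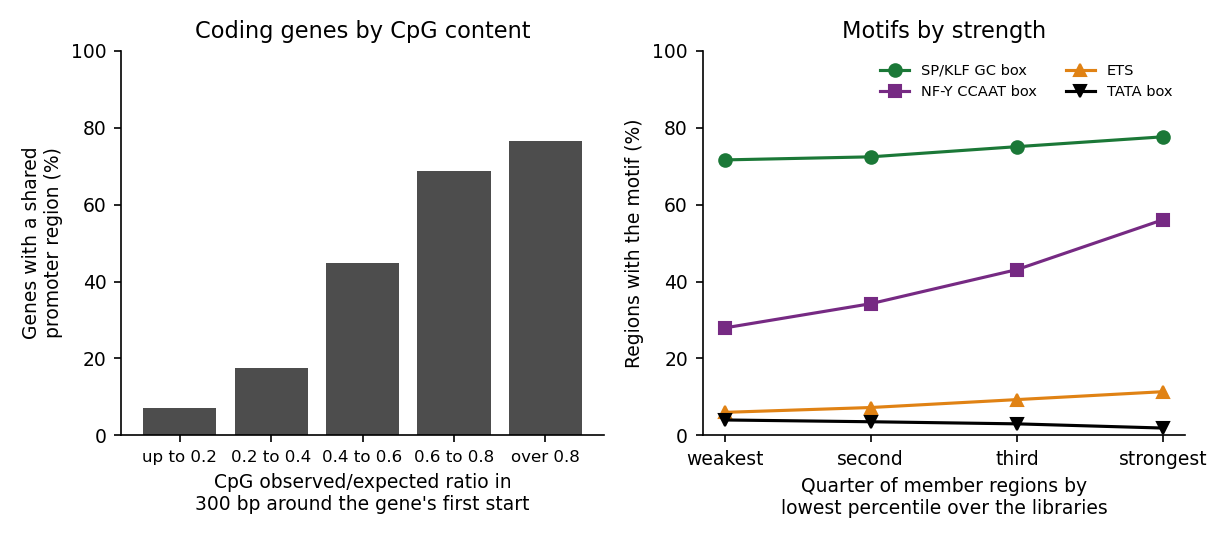
Left, share of coding genes with a member region (vertical axis, %) by CpG observed to expected ratio around the outermost start. It is 7.19% in the lowest class and 76.4% in the highest. Right, share of member regions with each of 4 motifs (vertical axis, %) in 4 equal sets from weakest to strongest. The CCAAT box goes from 27.9% to 56.1%, and the GC box from 71.6% to 77.6%.

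A CCAAT box of a replication gene is shown because this class had the motif so often. For the promoter of Mcm5, a subunit of the replicative helicase, the window is chr8:75109452-75109526 (plus strand). The box in capitals is at -82 bp from the start, and another CCAAT further downstream in the window is left in lowercase.
Mcm5, CCAAT box: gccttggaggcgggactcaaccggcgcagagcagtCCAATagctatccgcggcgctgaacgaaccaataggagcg
Its library percentile was 99.6 and 99.0 at d4, and 86.1 and 92.8 at d2, and both d4 values were above both d2 values.

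The ranks of member regions were next compared between d4 and d2. The smallest p that 2 against 2 libraries allow in an exact permutation test is 0.33, and regions were therefore counted without a test, by a rule: the lower d4 shared percentile had to exceed the higher d2 shared percentile by at least 10 points, or the reverse. By this rule 851 member regions (8.95%) ranked higher at d4, where the share of all shared regions was 10.0%, and 876 (9.21%) ranked lower, where it was 9.61%. Neither share was above its background. Ranked over all peaks of a library instead, 452 ranked higher and 1146 lower, and with any 1 library left out the counts were 1578 to 1852 higher and 1680 to 1958 lower, since fewer libraries then had to be apart. Among shared distal regions the shares were 15.2% higher and 12.1% lower. The median shift of a member region, its mean shared percentile at d4 minus that at d2, was 0.08 points, with quartiles of -11.1 and 10.7. By width, 1477 member regions (15.5%) were wider in both d4 than in both d2 libraries, where the share of all shared regions was 17.1%, and 2750 (28.9%) were narrower, where it was 28.5%.

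GC content moved with the shift. In the lowest of 4 equal sets by GC content (median 57.3%) the median shared percentile was 59.6 and 58.3 at d4, and 53.8 and 48.8 at d2. In the highest set (median 72.7%) it was 40.5 and 39.1 at d4, and 45.2 and 54.8 at d2. The d2 replicates also differed from each other here, with a median difference of -6.16 points for replicate 1 minus replicate 2. The lowest set held 360 regions ranked higher and 138 ranked lower at d4, and the highest held 86 and 351. The part that library preparation had in this was not tested, so the class values below are also given after subtracting, in each library, the median percentile of members with like GC content (10 equal sets).

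**Figure D4:**
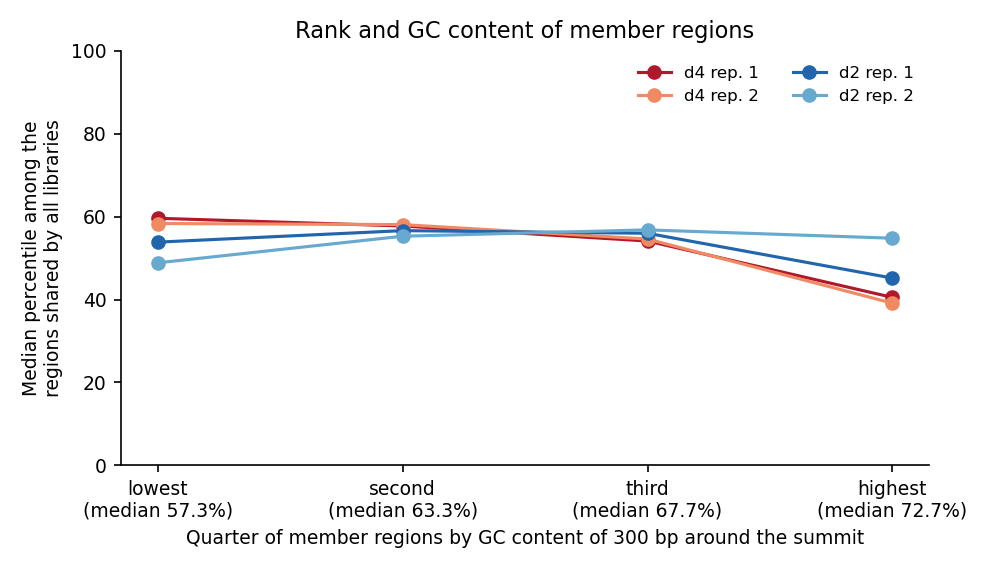
Median shared percentile (vertical axis) of member regions in 4 equal sets by GC content (horizontal axis), one line per library. The 4 lines lie close in the middle sets and part at both ends, in the lowest set at 59.6 and 58.3 for d4, and 53.8 and 48.8 for d2, and in the highest at 40.5 and 39.1 for d4, and 45.2 and 54.8 for d2.

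The regions that ranked higher at d4 by the widest gap began with Scn7a, a sodium channel of the sodium-sensing family, whose fold enrichment was 17.6 and 14.5 at d4, and 5.74 and 5.39 at d2. Its shared percentile was 98.0 and 90.04 at d4, and 3.89 and 1.27 at d2, a gap of 86.1 points between the groups. Its CpG ratio was 0.140, where the member median was 0.81, and it held a GATA motif, which 88 member regions (0.925%) share. Of these 88, 14 (15.9%) ranked higher at d4 and 10 (11.4%) lower, against 8.95% and 9.21% of all members. The regions of Arid5b, Ighmbp2, Nme6 and Ankrd26, given below, held no GATA motif. The window of Scn7a is chr2:66784986-66785062 (minus strand), and the capitals mark the GATA motif in reverse orientation.
Scn7a, GATA site: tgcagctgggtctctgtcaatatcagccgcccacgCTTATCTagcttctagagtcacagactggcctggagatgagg
Arid5b, a DNA-binding cofactor of histone demethylation, followed with fold enrichments of 14.0 and 12.1 at d4, and 6.72 and 6.35 at d2. The region shared by Ighmbp2 and Mrpl21, a helicase and a mitochondrial ribosomal protein read in opposite directions, had 12.4 and 11.1 at d4, and 6.16 and 6.68 at d2. At Nme6, a nucleoside diphosphate kinase, the values were 12.5 and 13.6 at d4, and 7.28 and 8.22 at d2, and at Ankrd26 11.5 and 12.5 at d4, and 5.74 and 7.21 at d2. In all 5 the groups were apart.

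The widest gaps in the other direction were at Myo3a, an actin motor of sensory cells, with fold enrichments of 6.27 and 6.31 in the d4 libraries, and 15.1 in both d2 libraries. Its shared percentile was 10.1 and 10.2 at d4, and 93.1 and 85.8 at d2. Ccdc113, a protein of cilia, had 5.13 and 6.34 at d4, and 13.0 and 14.8 at d2. At Parp8, an ADP-ribosyltransferase family member, the values were 6.89 and 6.65 at d4, and 13.4 and 14.8 at d2. Camsap3, which binds microtubule minus ends, had 6.27 and 6.86 at d4, and 14.7 and 14.6 at d2, and Ptprz1, a receptor phosphatase, had 5.36 and 6.38 at d4, and 14.0 at d2 in both replicates. None of the d4 values reached a d2 value.

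The pluripotency gene Utf1, a chromatin protein of embryonic stem cells, was among the members that ranked lower. Its fold enrichment was 5.72 and 6.13 at d4, and 10.5 and 11.0 at d2, with shared percentiles of 5.69 and 8.31 at d4, and 58.9 and 48.0 at d2. The window around a GC box at its start is chr7:139943736-139943811 (plus strand), with this box in capitals. Another GGGCGG further downstream in the window is left in lowercase.
Utf1, GC box: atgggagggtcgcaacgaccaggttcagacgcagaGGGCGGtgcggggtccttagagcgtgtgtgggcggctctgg
Klf4, a pluripotency factor, had shared percentiles of 6.64 and 5.66 at d4, and 13.0 and 13.5 at d2, and Notch1, the receptor of arterial fate, 0.787 and 2.64 at d4, and 12.2 and 16.4 at d2. Both were lower in each d4 than in each d2 library by less than the 10 points asked for. Etv2 and Erg, ETS factors of endothelial fate, had overlapping groups, with 34.1 and 12.9 at d4, and 74.4 and 20.5 at d2 for Etv2, and 10.8 and 17.1 at d4, and 12.3 and 38.6 at d2 for Erg.

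Gene classes differed in their shift, although the median of all members was near 0. The counts below are to be read against the 8.95% of all members that ranked higher and the 9.21% that ranked lower, and the 10.0% and 9.61% of all shared regions. The 7 chaperonin regions had median shared percentiles of 74.8 and 80.8 at d4, and 49.4 and 57.2 at d2, and a median shift of 24.6 points, or 15.6 with GC content subtracted and 16.3 without d4 replicate 2. Cct5 had 80.6 and 80.8 at d4, and 13.3 and 40.8 at d2, and Cct4 had 79.3 and 78.3 at d4, and 27.4 and 57.2 at d2. With Cct2 these were the 3 of 7 that ranked higher, and none ranked lower. The strongest of the 7, Tcp1, shares its divergent region with Mrpl18 and had a shift of -2.36 points.

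Cytosolic ribosomal protein genes had median shared percentiles of 58.5 and 55.2 at d4, and 41.1 and 42.0 at d2. Of their 62 regions, 13 (20.97%) ranked higher at d4 and 1 (1.61%), that of Rpl7a and its divergent neighbor Med22, ranked lower, against 8.95% and 9.21% of all members, and the median shift was 10.2 points, or 5.29 with GC content subtracted and 6.56 without d4 replicate 1. Rpl11 had 88.4 and 55.7 at d4, and 14.0 and 15.4 at d2, and Rps15a had 62.0 and 54.8 at d4, and 18.7 and 10.5 at d2. For the 63 regions of mitochondrial ribosomal proteins the shift was 5.48 points, or 3.15 with GC content subtracted and 3.26 without d4 replicate 2, with 8 regions (12.7%) ranked higher, where the share of all members was 8.95%, and 1 (1.59%) lower, where it was 9.21%. Their median shared percentiles were 60.0 and 66.5 at d4, and 55.1 and 59.5 at d2.

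Genes named Zfp, most of which encode zinc finger DNA-binding proteins, held more member regions than any other class. They form a large class of 391 genes, of which 248 (63.4%) had a member region, against 46.1% of all coding genes. Of their 247 regions, 44 (17.8%) ranked higher at d4 and 9 (3.64%) lower, against 8.95% and 9.21% of all members. The median shared percentile was 71.3 and 69.1 at d4, and 56.9 and 52.6 at d2, and the shift was 8.08 points, or 6.97 with GC content subtracted and 3.93 when ranked by pileup over background without the added 1. Zfp108 had 94.5 and 94.0 at d4, and 38.6 and 23.7 at d2. Zfp948 had 74.9 and 70.9 at d4, and 14.2 and 10.9 at d2, and Zfp93 90.3 and 98.3 at d4, and 27.6 and 45.4 at d2. In the other direction Zfp287 had 36.1 and 10.2 at d4, and 88.0 and 69.2 at d2, and Zfp462 had 2.28 and 3.00 at d4, and 35.8 and 28.9 at d2.

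Cytochromes P450 went the other way in a small class. Of 12 regions none ranked higher at d4 and 5 (41.7%) ranked lower, against 8.95% and 9.21% of all members, and the median shift was -14.7 points, or -11.9 with GC content subtracted. The class medians were 22.3 and 49.1 at d4, and 83.9 and 78.4 at d2, so the d4 replicates were far apart. Without d4 replicate 1 the shift was -25.6 points and without d4 replicate 2 it was -5.13. The 5 were Cyp1b1, Cyp2j9, Cyp2r1, Cyp4x1 and Cyp7b1. At Cyp2r1, the vitamin D 25-hydroxylase, the shared percentile was 16.0 and 44.6 at d4, and 96.7 and 88.1 at d2, and at Cyp4x1 it was 21.3 and 32.2 at d4, and 96.0 and 82.9 at d2.

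**Figure D5:**
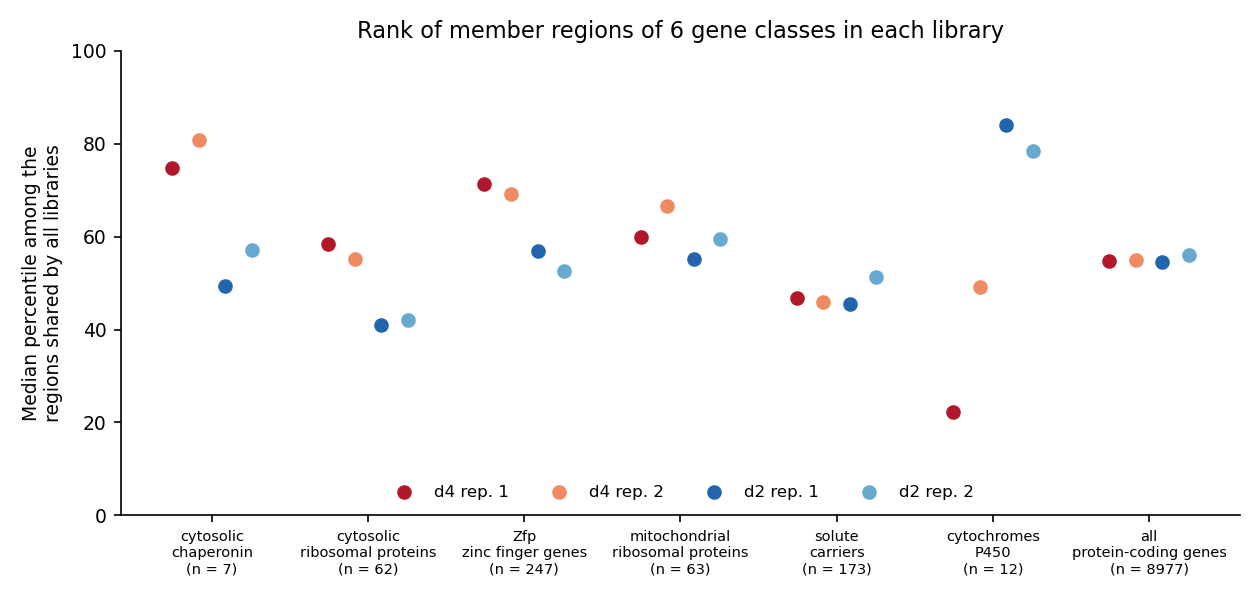
Median shared percentile (vertical axis) of the member regions of 6 gene classes and of all coding genes in each library, with the d4 libraries left of the d2 libraries. Both d4 points lie above both d2 points for the chaperonin, cytosolic ribosomal protein, Zfp and mitochondrial ribosomal protein genes, and below them for cytochromes P450. For solute carriers the groups overlap, and for all coding genes the 4 medians lie between 54.4 and 56.0.

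Single members of other complexes ranked higher or lower at d4. Among Polycomb genes Ezh2, the histone methyltransferase, had shared percentiles of 66.8 and 75.2 at d4, and 48.0 and 52.9 at d2, and Eed, its partner, 47.1 and 40.6 at d4, and 11.4 and 22.0 at d2. Cbx8 and Phc1 also ranked higher, whereas Cbx2 and Rbbp4 ranked lower, with Cbx2 at 6.98 and 1.38 at d4, and 42.2 and 21.3 at d2. Of the 17 Polycomb regions 4 (23.5%) thus ranked higher and 2 (11.8%) lower, against 8.95% and 9.21% of all members. In TFIIH and TFIID the largest gap was at Ercc3, the TFIIH helicase, with 79.8 and 75.3 at d4, and 15.1 and 17.9 at d2. Of the 19 replication regions, Mcm5, Mcm6, Mcm7 and Orc5 ranked higher and Cdc6, the loader of MCM helicases, ranked lower, with 50.5 and 35.9 at d4, and 66.3 and 81.4 at d2. The class shares were 21.1% higher and 5.26% lower, against 8.95% and 9.21% of all members. Of 28 Mediator regions 3 (10.7%) ranked higher and 4 (14.3%) lower, near the 8.95% and 9.21% of all members. The class had a median shift of -3.38 points, or -7.35 with GC content subtracted and 1.21 without d2 replicate 2.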

How the data were processed

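ATAC-seq libraries of ES-E14TG2a cells were grouped by their labels into d4 and d2, with 2 libraries each. The submitters' notes and the paper's methods name FastQC for read quality, cutadapt for trimming, Bowtie2 for alignment to mm10 and MACS2 for peaks, which the authors called per library with no control after taking out duplicates, mitochondrial reads and reads with several map positions. Peaks in blacklisted regions were taken out. The stated options name both paired-end mode and a read shift, and which applied was not tested here. The deposited fold enrichment is the authors' ratio of summit pileup to local background with 1 added to both, and the deposited −log10 p and −log10 q are their Poisson value and its corrected form. The deposited score was not used, and the lowest −log10 q was 3.00.

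Peaks were merged with bedtools 2.31.1, in Python 3.11.15 with pandas 2.3.3, numpy 2.4.6, scipy 1.17.1 and pysam 0.24.0. Coding starts came from GENCODE M 21 without the mitochondrial chromosome. A gene takes its strongest member region, and coordinates are 1-based mm10. Pileup and background were solved from fold and p, and came out whole in 100% of peaks to within 0.01 in −log10 p. Sequences and motif matches (16 motifs, 300 bp) were read from the RefSeq GRCm38 FASTA. Merging and membership, the percentile gaps, the solving of pileups and the motif search were tested on simulated data. The 40 gene classes, by symbol pattern or list, held 1 gene that the annotation does not call coding (Cct6a). Members, lists and motifs were chosen with earlier results of these data known.

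Genes named were the 10 strongest regions, the 5 widest, the 5 with the widest gap in each direction, of each class up to 3 strongest and 3 without a member region, and the EC genes Kdr, Eng, Cdh5, Flt1, Pecam1 and Notch1. Examples from classes beyond these were chosen after their values were seen, as the widest gaps of the class. Some genes that this rule names are not reported here. Tests of width and strength against other promoters were planned but not used, because the choice of members rests on the same peaks. Alternatives were a −log10 q minimum of 5 or 10, the 15000 peaks highest in −log10 p, 100 bp of overlap, merging up to 500 bp apart, starts within 500 or 2500 bp, the GENCODE basic set, other rankings, gaps and windows, and leaving out each library. The subtraction of GC content and the alternatives for class shifts and strength were added after the data were seen. Intervals over regions are not given, since regions of a library are not replicates.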

Additional observations from a re-analysis of the deposited data

How the results depend on the processing

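The 9512 member regions, the 10116 genes and the 25 classes above the share of all genes changed by less than 1.5 times under each alternative run. Leaving out 1 library gave 9747 to 10110 regions, 10201 to 10604 genes and a median width of 574 to 606 bp. The median width was 671 bp with −log10 q of at least 10, 666 bp with the 15000 best peaks and 685 bp when peaks up to 500 bp apart were merged. The mean of the library medians of strength was 72.9, and 64.2 when ranked by pileup over background without the added 1. The count of regions ranked higher at d4 was 452 when ranked over all peaks, and 2018, 1280 and 342 with gaps above 0, of at least 5 and of at least 20 points. Those ranked lower were 2024 and 376 with gaps above 0 and of at least 20 points. Leaving out 1 library, which leaves a single library on one side and so a looser rule, gave 1578 to 1852 higher and 1680 to 1958 lower. Subtracting GC content gave 834 higher and 799 lower.

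With the replicate block (at least 10 points in both same-numbered pairs) 1185 regions ranked higher and 1229 lower. The deviations of same-numbered libraries from their day means had a correlation of -0.00693. This value rests on 1 difference between replicates per day. It cannot show whether same-numbered libraries came from the same differentiation experiment. In windows of 200 bp the GC box was found in 64.7%, the ETS site in 7.18% and the CCAAT box in 34.5% of member regions, and around the nearest start the CCAAT box in 37.5%. Class shifts kept their sign for the chaperonin, both ribosomal classes, Zfp genes, cytochromes P450 and solute carriers under each alternative run. The shift of Mediator, -3.38 points, ranged from -6.33 to 1.21 with 1 library left out. For Zfp genes the shift was 3.93 points when ranked without the added 1. Weak peaks rest on as few as 6 fragments or reads, so a peak missed in a single library need not mean a closed promoter.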

Other observations

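Some genes of high and general use had weak promoter peaks. Over the 16 housekeeping reference genes with a member region, the lowest library percentile had a median of 40.7, against 58.5 over all coding genes with one. The stronger region of Actb had library percentiles of 35.8 and 21.2 at d4, and 66.5 and 47.1 at d2, whereas Pgk1 had 98.4 and 93.0 at d4, and 99.2 and 93.0 at d2. Genes with several member regions were few: 9526 had 1, 561 had 2 and 29 had at least 3, led by Pde4d, a phosphodiesterase with many alternative starts, with 5, and by Auts2, Foxn3 and Shroom3 with 4 each.

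The coding promoters outside the list differed from it in sequence. The 335 regions with a peak in both d4 and no d2 library had a median CpG ratio of 0.29 and held GATA motifs in 17.9%, the 1518 with a peak in both d2 and no d4 library had a ratio of 0.65 and GATA motifs in 0.856%, and member regions had 0.81 and 0.925%. The remaining 5230 regions near a coding start had 0.68 and 2.03%. The shares were not matched for GC content. Its median was 54.0% in the 335 regions, 65.0% in the 1518, 63.3% in the 5230 and 65.3% in member regions.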
